A study of Homo sapiens with 24 samples.

Results

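Transcripts of 30 genes of cholesterol synthesis, uptake and efflux were followed across RNA sequencing libraries of 3 human cancer cell lines. The 30 genes were chosen by symbol from the pathway, with earlier results of these data known, out of 26346 genes in each deposited table. They comprised 8 genes of the mevalonate steps that lead to squalene (ACAT2, HMGCS1, MVK, PMVK, MVD, IDI1, FDPS and FDFT1) and 10 genes of the sterol ring steps (SQLE, LSS, CYP51A1, TM7SF2, MSMO1, NSDHL, HSD17B7, EBP, SC5D and DHCR7). A further 6 sense sterols or process the pathway's transcription factor (SREBF2, SCAP, INSIG1, INSIG2, MBTPS1 and MBTPS2), 3 act in transport and uptake control (STARD4, NPC1 and MYLIP), and 3 act in efflux and esterification (ABCA1, ABCG1 and SOAT1).

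The study held 24 libraries of polyA RNA in 12 groups of 2, each pair made from independent infections, selections and cultures. VCaP is a prostate cancer line in which the TMPRSS2 promoter drives ERG through a gene fusion, and it received an shRNA against ARID1A (shARID1A), an shRNA against ERG (shERG) or a control shRNA (shCt). ARID1A is a subunit of the SWI/SNF chromatin remodelling complex, and ERG and ETV1 are transcription factors of the ETS family. LNCaP is a prostate cancer line without that fusion, and it received ERG, ETV1 or an empty vector (Empty). SW13 is a carcinoma line labelled adrenocortical that makes very little of BRG1, the SWI/SNF ATPase encoded by SMARCA4. It received V5-tagged BRG1, its ATPase mutant BRG1-K785R or GFP, each together with V5-tagged ERG or an empty vector. Lentivirus was left on every culture for 48 h and selection followed, for 8 days with puromycin in VCaP, for 4 days with blasticidin in LNCaP and for 2 days with both drugs in SW13. Every group therefore carried a virus and a resistance gene, controls included, and every culture contained fetal bovine serum, which supplies lipoprotein cholesterol.

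Cholesterol is built from acetyl-CoA through mevalonate, isoprenoid units and squalene, which is then folded into a ring and trimmed to cholesterol. When sterols are scarce in the endoplasmic reticulum, SCAP escorts the precursor of SREBP-2, the product of SREBF2, to the Golgi, where the MBTPS1 and MBTPS2 proteases release the fragment that switches on synthesis and uptake genes. When sterols are abundant, INSIG1 and INSIG2 hold SCAP back, and oxysterols activate LXR receptors, whose known targets include ABCA1, ABCG1 and MYLIP. Prostate cells take up and make cholesterol for membranes, and adrenal cortex cells also use it for steroid hormones.

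Promoter sequences are shown for 5 genes, 3 enzyme genes with large rises in LNCaP cells with ERG (HMGCS1, MVD and MSMO1), the transcription factor gene itself (SREBF2), and the efflux gene with the widest range (ABCA1). Each window runs from 250 bases before to 50 bases after an annotated start, 5′ to 3′ on the gene's strand, from RefSeq on build GRCh38.p14, whereas the submitters' processing notes name hg19 for the reads. A RefSeq window was found for 26 of the 30 genes, in 32 windows, and not for ACAT2, ABCG1, FDFT1 or SQLE. Capitals mark the sterol regulatory element TCACNCCAC, which SREBP proteins bind, and the NF-Y box CCAAT, each searched on both strands, so that CCAAT on the other strand reads ATTGG. The windows lie at chr5:43313363-43313662 on the minus strand (HMGCS1), chr16:88663042-88663341 on the minus strand (MVD), chr4:165327419-165327718 on the plus strand (MSMO1), chr22:41832855-41833154 on the plus strand (SREBF2) and chr9:104928106-104928405 on the minus strand (ABCA1).
HMGCS1: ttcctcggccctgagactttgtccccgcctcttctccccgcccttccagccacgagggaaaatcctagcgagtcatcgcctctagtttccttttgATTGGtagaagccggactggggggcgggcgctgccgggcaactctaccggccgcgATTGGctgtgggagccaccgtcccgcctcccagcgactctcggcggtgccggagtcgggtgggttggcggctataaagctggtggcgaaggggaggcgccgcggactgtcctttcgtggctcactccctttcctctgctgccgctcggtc
MVD: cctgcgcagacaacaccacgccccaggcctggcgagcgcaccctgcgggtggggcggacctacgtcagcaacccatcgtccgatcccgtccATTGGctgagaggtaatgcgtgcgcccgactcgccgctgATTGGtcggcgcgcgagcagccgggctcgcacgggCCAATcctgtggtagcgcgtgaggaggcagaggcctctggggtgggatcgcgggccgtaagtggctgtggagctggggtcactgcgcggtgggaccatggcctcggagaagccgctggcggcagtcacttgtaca
MSMO1: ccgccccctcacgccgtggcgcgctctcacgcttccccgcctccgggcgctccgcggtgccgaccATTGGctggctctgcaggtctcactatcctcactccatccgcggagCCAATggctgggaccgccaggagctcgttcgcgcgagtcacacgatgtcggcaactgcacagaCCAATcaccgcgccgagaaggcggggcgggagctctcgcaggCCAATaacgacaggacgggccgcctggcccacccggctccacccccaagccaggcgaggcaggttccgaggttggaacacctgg
SREBF2: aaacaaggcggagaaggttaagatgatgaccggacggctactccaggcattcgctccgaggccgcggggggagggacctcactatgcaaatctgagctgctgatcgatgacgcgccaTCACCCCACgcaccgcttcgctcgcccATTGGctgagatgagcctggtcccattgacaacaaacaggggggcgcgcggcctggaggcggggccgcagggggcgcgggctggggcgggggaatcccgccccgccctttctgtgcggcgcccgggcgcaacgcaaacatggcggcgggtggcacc
ABCA1: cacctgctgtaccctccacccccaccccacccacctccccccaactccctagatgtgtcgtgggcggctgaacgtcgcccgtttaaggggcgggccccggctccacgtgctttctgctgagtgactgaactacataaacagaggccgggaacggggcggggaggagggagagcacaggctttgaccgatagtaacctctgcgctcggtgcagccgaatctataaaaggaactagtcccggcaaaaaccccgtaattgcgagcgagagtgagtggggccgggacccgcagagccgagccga
The HMGCS1 window shown held 2 CCAAT boxes, and a second HMGCS1 window in the table, at chr5:43313132-43313431, held 0. The MVD window held 3 and the MSMO1 window 4, SREBF2 held 1 CCAAT box and 1 TCACNCCAC element, and ABCA1 held neither. Over the windows of all 26 matched genes, CCAAT was found in 20 of 32 windows (62.5%), against 34.6% of all 35116 windows of the table. GGGCGG, the SP box, was found in 28 of 32 windows (87.5%) against 45% of all windows, and CGGAAG, the core that ETS factors bind, in 7 of 32 (21.9%) against 19.5%. TCACNCCAC was found in 1 of 32 windows (3.12%), that of SREBF2, against 1.13% of all windows. A match is a description of letters in a window, not a bound site, and a window without a match says nothing about regulation from elsewhere.

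Libraries held 19754265 to 41996681 reads counted on genes. The targeted genes followed the labels. ERG had 81.0 and 87.9 CPM (counts scaled to the library total) in VCaP shERG, against 330.4 and 354 CPM in shCt, and ARID1A had 71.9 and 75.3 CPM in shARID1A, against 251 and 249.8 CPM in shCt. ERG was called lower with shARID1A too (log2 change -0.58), and the part of this in the changes of the cholesterol genes was not tested. In LNCaP, ERG had 996 and 958 CPM with ERG, against 0.277 and 0.619 CPM with Empty, and ETV1 had 3749 and 3626 CPM with ETV1, against 568 and 590.5 CPM with Empty. In SW13, ERG had 1474 to 2148 CPM in the 6 libraries with ERG, against 0 to 0.226 CPM with Empty, and SMARCA4 had 1417 to 2264 CPM in the 8 libraries with BRG1 or BRG1-K785R, against 25.5 to 35.4 CPM with GFP. Prostate luminal markers (7 genes such as KLK3 and KLK2) summed to 5402.5 to 10962 CPM in VCaP and 5122 to 6041 CPM in LNCaP. Of 9 adrenal cortex markers, 1 (CYP21A2) averaged at least 1 CPM in SW13, and CYP11B1, CYP11B2, HSD3B2 and MC2R had 0 reads there, so the adrenal label was not borne out by these markers. Both BRG1-K785R Empty libraries stood apart by the ribosomal precursor RNA45S5, a gene chosen after its values were seen, with 1.98% and 2.64% of the counted reads, against 0.294% to 1.47% in the other 22 libraries. FDPS and HSD17B7 have near-identical pseudogene copies, so their counts are less certain than the others. In bulk RNA, fewer cells of a kind and less RNA per cell cannot be told apart.

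The summed level of the 30 genes was highest in VCaP with shARID1A and lowest in SW13 with GFP. In VCaP it was 5836 and 6289 CPM with shARID1A and 4047 and 3901 CPM with shERG, against 3490.1 and 3410.5 CPM with shCt. In LNCaP it was 3970.1 and 4609 CPM with ERG and 2786 and 2847 CPM with ETV1, against 2399 and 2396 CPM with Empty. On library totals these sums did not overlap between the groups of either prostate line. For shERG against shCt that scale also placed the median of all genes 0.183 higher in log2 units than TMM did. On the TMM scale the median log2 change of the 30 genes with shERG was -0.026, so the shERG gap depended on the scale. In SW13 the sum was 2104 and 1993 CPM in BRG1 ERG against 2070.1 and 2040.5 CPM in BRG1 Empty, 2094 and 1996 CPM in BRG1-K785R ERG against 1875 and 1896 CPM in BRG1-K785R Empty, and 1761 and 1796 CPM in GFP ERG against 1762 and 1794 CPM in GFP Empty. The order within SW13 depended on the scale: with TMM over all 24 libraries the mean sum was 1898.8 in BRG1-K785R ERG against 1996.5 in BRG1-K785R Empty, the opposite order, and BRG1 ERG (1954.6) and BRG1 Empty (1900.4) also lay below BRG1-K785R Empty. The lines differed in constructs, selection and time, so levels across lines are a description.

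Per transcript length (RPKM, counts scaled to gene length and library total), the leading genes differed between lines when all groups of a line were averaged. Averaged over its groups, VCaP had most of PMVK, the phosphomevalonate kinase gene (151 RPKM), TM7SF2, a sterol reductase gene (151 RPKM), and SC5D, the sterol desaturase gene of a late ring step (144 RPKM). LNCaP had most of FDFT1, the squalene synthase gene (78.0 RPKM), DHCR7, a reductase gene of a last step (77.6 RPKM), and FDPS, the farnesyl diphosphate synthase gene (76.4 RPKM). That order came with the ERG and ETV1 groups in the average. In LNCaP Empty alone TM7SF2 (63.1 RPKM), ACAT2 (49.8 RPKM) and DHCR7 (49.4 RPKM) led, and FDFT1 and FDPS had 41.8 and 41.0 RPKM. SW13 had most of ACAT2, the gene of the thiolase that opens the pathway (64.0 RPKM), CYP51A1, the lanosterol demethylase gene (50.4 RPKM), and PMVK (50.3 RPKM). ABCA1 was the lowest of the 30 genes in every line, at 1.22 RPKM in VCaP, 0.105 RPKM in LNCaP and 0.345 RPKM in SW13. SC5D had the widest range of any enzyme gene over the 12 groups, from 6.58 RPKM in SW13 BRG1-K785R Empty to 268 RPKM in VCaP shARID1A. The narrowest range belonged to MBTPS1, which encodes the protease that makes the first cut in the SREBP precursor, from 21.6 RPKM in LNCaP ERG to 39.6 RPKM in VCaP shERG.

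**Figure D1:**
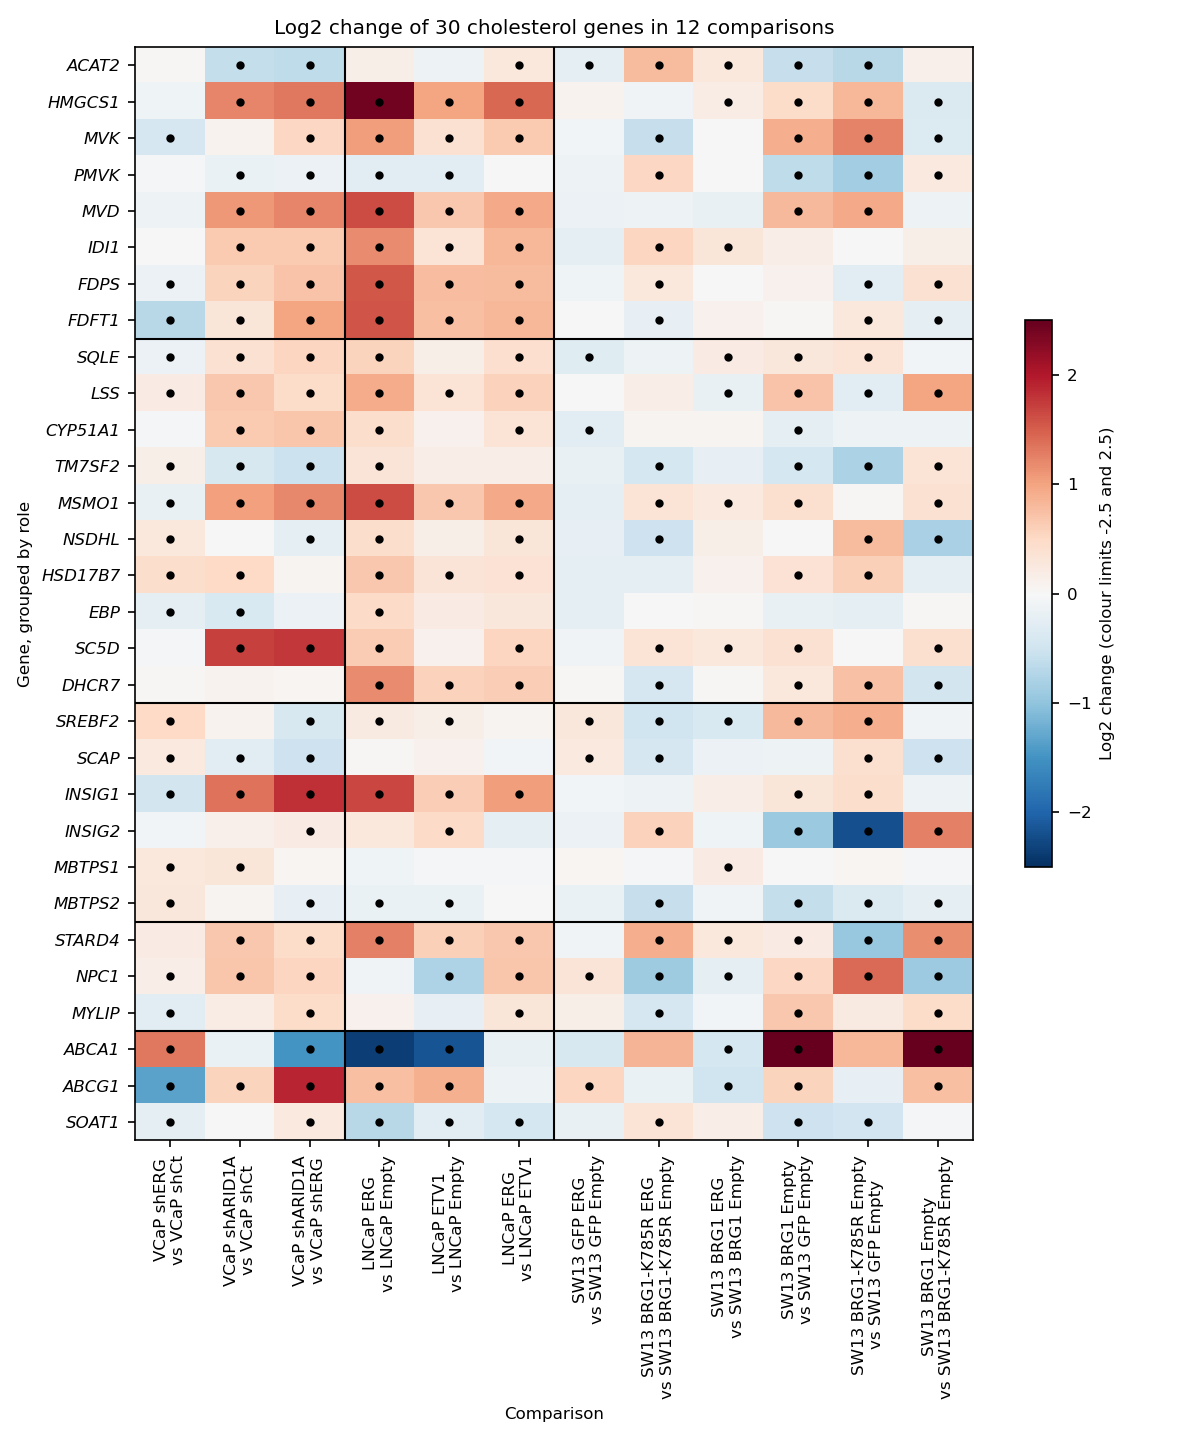
Log2 change of each of the 30 genes (rows, grouped by role) in each of the 12 comparisons between groups (columns), with a dot where the change was called at an adjusted p below 0.05. The LNCaP ERG column holds 20 genes called higher, where 15.4% of all genes tested were. The SW13 GFP ERG column holds 7 calls in all (23.3% of the members), where 26% of all genes tested were called.

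Cholesterol synthesis genes rose together in LNCaP cells with ERG. Of the 18 enzyme genes, 16 rose, PMVK fell and ACAT2 was not called, and the summed enzyme level was 2836 and 3399.7 CPM with ERG, against 1419 and 1444 CPM with Empty. Of all 30 genes, 20 rose, 4 fell and 6 were not called by edgeR's quasi-likelihood test at an adjusted p below 0.05, while 10 rose and 1 fell by at least 2-fold. On the background of the 16993 genes tested in this line, 29.7% were called (15.4% rose and 14.3% fell) and 5.27% changed by at least 2-fold in either direction. Calls over all genes numbered 2632 without Empty replicate 1 and 2939 without Empty replicate 2, against 5045 with all libraries, while 20 to 24 members were called with any 1 library left out. The median log2 change of the 30 genes was 0.52, against -0.002 over all genes tested. All 30 genes passed the filter on low counts in every line, and log2 changes are given with their standard errors, on the scale that the trimmed mean of M-values (TMM) sets.

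Among the mevalonate genes, HMGCS1, which encodes the synthase that makes HMG-CoA, had 448 and 622 CPM with ERG, against 101 and 101 CPM with Empty (log2 change 2.41 ± 0.14, adjusted p = 7.8e-06). MVD, the mevalonate diphosphate decarboxylase gene, had 90.4 and 104 CPM with ERG, against 32.1 and 31.1 CPM with Empty (1.63 ± 0.10, adjusted p = 1.22e-05). FDFT1 had 500.2 and 585 CPM with ERG, against 183 and 185 CPM with Empty (1.57 ± 0.068, adjusted p = 1.68e-06). In each of these 3 genes both ERG libraries lay above both Empty libraries. FDPS had 177 and 218 CPM with ERG, against 67.1 and 67.8 CPM with Empty (1.56 ± 0.10, adjusted p = 1.27e-05). IDI1, the isopentenyl diphosphate isomerase gene, and MVK, the mevalonate kinase gene, rose by 1.18 ± 0.081 and 1.05 ± 0.12. PMVK, which acts just after MVK, had 48.8 and 49.7 CPM with ERG, against 60.8 and 57.8 CPM with Empty, a fall of small size (-0.26 ± 0.053, adjusted p = 0.00683) that was not called without Empty replicate 1 (adjusted p = 0.0672). ACAT2 had a log2 change of 0.14 ± 0.069 (adjusted p = 0.157).

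All 10 sterol ring genes rose with ERG, by log2 changes between 0.33 (TM7SF2) and 1.62 (MSMO1). MSMO1, the sterol methyl oxidase gene, had 177 and 216 CPM with ERG, against 61.1 and 67.3 CPM with Empty (1.62 ± 0.092, adjusted p = 7.53e-06). DHCR7 rose by 1.18 ± 0.072 and LSS, which encodes the synthase that closes the rings, by 0.92 ± 0.079. SQLE, the squalene epoxidase gene, rose by 0.56 ± 0.084. The other 5 were HSD17B7, SC5D, EBP, NSDHL and CYP51A1, with log2 changes of 0.68, 0.64, 0.48, 0.44 and 0.44. EBP (adjusted p = 0.0559) and NSDHL (adjusted p = 0.0509) were not called without Empty replicate 1.

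Sensing genes split by gene. INSIG1, whose product holds the SREBP precursor back and which is itself an SREBP target, had 211 and 269.6 CPM with ERG, against 75.4 and 77.1 CPM with Empty (1.66 ± 0.10, adjusted p = 9.47e-06). SREBF2 rose by 0.22 ± 0.043, a call lost without Empty replicate 2 (adjusted p = 0.0548). MBTPS2 fell slightly (-0.17 ± 0.053, adjusted p = 0.0434), a call lost whichever of the 4 libraries was left out (adjusted p 0.116 to 0.157). SCAP (0.037), INSIG2 (0.26, adjusted p = 0.0507) and MBTPS1 (-0.10) were not called. STARD4, which encodes a soluble sterol carrier, had 63.0 and 66.7 CPM with ERG, against 28.9 and 25.2 CPM with Empty (1.27 ± 0.072, adjusted p = 7.44e-06). NPC1, whose product moves cholesterol out of lysosomes, had a log2 change of -0.085 ± 0.077, and MYLIP, which encodes a ubiquitin ligase that marks lipoprotein receptors for degradation, of 0.10 ± 0.079, and neither was called.

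Efflux genes moved in opposite directions with ERG. ABCA1, the gene of the transporter that loads cholesterol onto lipid-poor apolipoprotein, had 0.491 and 0.409 CPM with ERG, against 3.22 and 1.45 CPM with Empty (-2.35 ± 0.44, adjusted p = 0.00421). The Empty libraries differed from each other by more than the ERG libraries did, and without Empty replicate 1 the log2 change was -1.67 (adjusted p = 0.0377). ABCG1, which encodes a transporter that passes cholesterol to mature lipoprotein particles, had 11.6 and 9.57 CPM with ERG, against 6.0 and 6.64 CPM with Empty (0.76 ± 0.12, adjusted p = 0.0019). SOAT1, which encodes the enzyme that stores cholesterol as esters, had 40.5 and 40.9 CPM with ERG, against 68.9 and 64.4 CPM with Empty (-0.70 ± 0.055, adjusted p = 3.87e-05). In all 3 genes the groups did not overlap. Of the 24 calls with ERG, 19 were also made under every alternative tried. Markers of other cells differed too: the 5 blood and endothelial genes summed to 64.1 and 73.0 CPM with ERG, against 33.3 and 34.8 CPM with Empty, and all 3 of them that were tested rose. Their sum was also raised with ETV1, at 64.3 and 68.5 CPM, where 1 of the 3 was called higher. The 4 fibroblast genes summed to 32.3 and 36.0 CPM with ERG, against 89.8 CPM in Empty replicate 1 and 21.1 CPM in Empty replicate 2. The part of these levels in the changes was not tested.

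**Figure D2:**
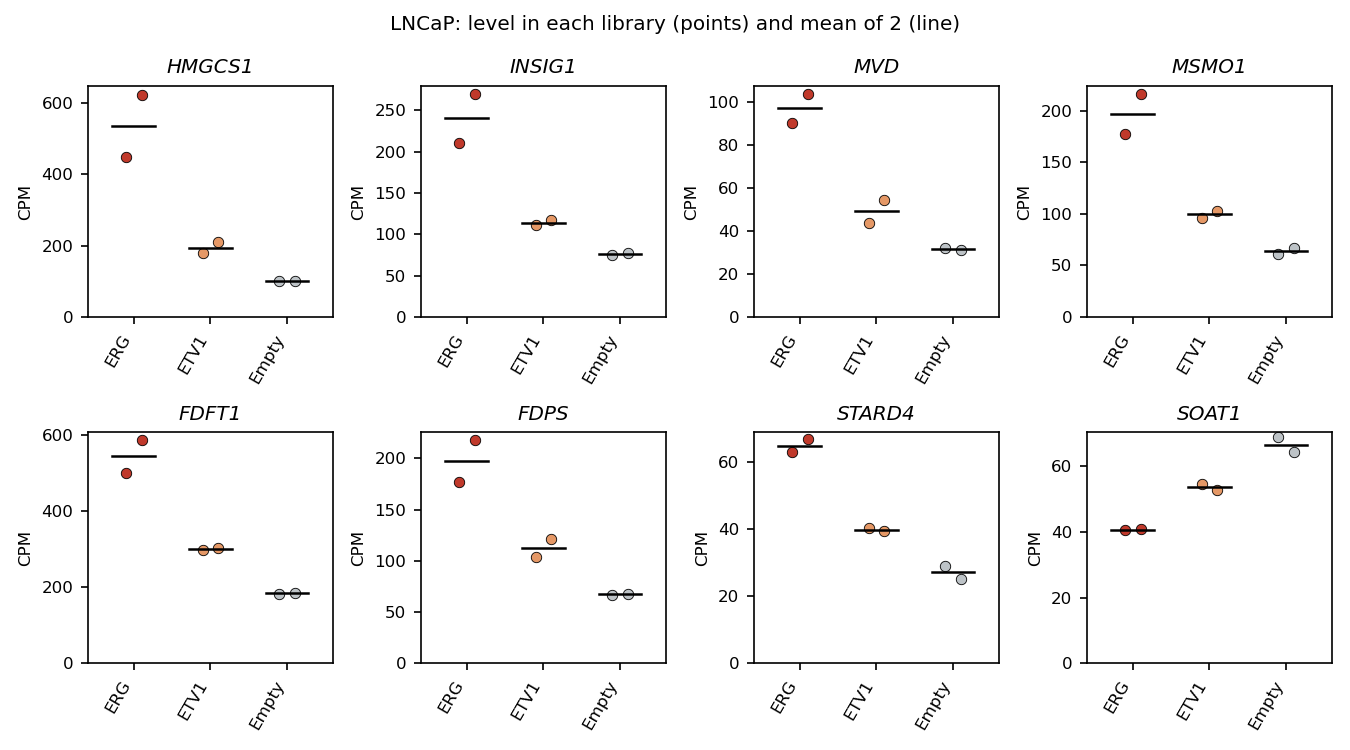
CPM of 8 genes in each LNCaP library (points) and the mean of 2 (line) for the ERG, ETV1 and Empty groups, each panel starting at 0. In the first 7 panels ETV1 lies between ERG and Empty, and SOAT1 runs the other way.

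Fewer synthesis genes rose with ETV1, whose transcript was already present in Empty. Of the 18 enzyme genes 10 rose, 1 (PMVK) fell and 7 were not called, and the summed enzyme level was 1837 and 1885 CPM with ETV1, against 1419 and 1444 CPM with Empty. Of the 30 genes 15 rose and 5 fell, where 13.2% of all genes tested rose and 12.9% fell. In all, 26.1% of all genes were called, and 1 member (ABCA1) changed by at least 2-fold, as did 4.39% of all genes. The median log2 change was 0.18 against 0.005 over all genes. This comparison and that of ERG share the Empty libraries, so their values are set side by side and their likeness was not measured.

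HMGCS1 had 179 and 210.1 CPM with ETV1, against 101 and 101 CPM with Empty (0.98 ± 0.13, adjusted p = 0.000963). FDPS rose by 0.78 ± 0.10, FDFT1 by 0.75 ± 0.067, MVD by 0.68 ± 0.10, MSMO1 by 0.67 ± 0.092, DHCR7 by 0.57 ± 0.072, STARD4 by 0.59 ± 0.072 and INSIG1 by 0.62 ± 0.10. INSIG2 rose as well, to 39.2 and 44.0 CPM with ETV1, against 31.9 and 29.2 CPM with Empty (0.48 ± 0.087, adjusted p = 0.00399). NPC1 had 104 and 89.5 CPM with ETV1, against 179.7 and 161 CPM with Empty, a fall in both libraries (-0.78 ± 0.078, adjusted p = 0.000181). It was the 1 fall of the 5 that every alternative called, and its groups did not overlap. ABCG1 had 11.7 and 11.0 CPM with ETV1, against 6.0 and 6.64 CPM with Empty (0.88 ± 0.12, adjusted p = 0.000924). ABCA1 had 0.401 and 0.612 CPM with ETV1, against 3.22 and 1.45 CPM with Empty (-2.16 ± 0.42, adjusted p = 0.00597), and that call was lost without Empty replicate 1 (log2 change -1.48, adjusted p = 0.0597) and without ETV1 replicate 1 (-1.89, adjusted p = 0.0599).

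Without Empty replicate 1 the count of called genes with ETV1 was 11, against 20 with all libraries, and the 9 calls not made were those of ABCA1, HSD17B7, IDI1, LSS, MBTPS2, MVK, PMVK, SOAT1 and SREBF2. Calls over all genes fell as well, to 1987 without that library, against 4439 with all libraries. IDI1, MVK and MBTPS2 lost their calls whichever library was left out (adjusted p up to 0.0906, 0.197 and 0.196). LSS lost it in addition without ETV1 replicate 2 (adjusted p = 0.0901) and Empty replicate 2 (adjusted p = 0.0689), and SREBF2 without the same 2 libraries (adjusted p 0.159 and 0.171). Empty replicate 1 also had 88.0 CPM of COL1A1, a collagen gene of the fibroblast marker list, against 20.9 CPM in Empty replicate 2, and its part in these results was not tested.

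Set against ETV1 directly, the ERG group had the higher enzyme levels. The factors were raised from unlike levels, by a log2 change of 11.07 for ERG and 2.71 for ETV1 over Empty. The part of this in the difference was not tested. Of the 18 enzyme genes 15 were higher with ERG than with ETV1, 0 were lower and 3 (PMVK, TM7SF2 and EBP) were not called. Of the 30 genes 19 were higher and 1, SOAT1, was lower, where 7.87% of all genes tested were higher and 6.5% lower (14.4% in all). By at least 2-fold, 2 members were higher (HMGCS1 and INSIG1), and 2.35% of all genes differed by as much. HMGCS1 had 448 and 622 CPM with ERG and 179 and 210.1 CPM with ETV1 (log2 difference 1.43 ± 0.13, adjusted p = 0.000255). INSIG1 had 211 and 269.6 CPM with ERG and 111 and 117 CPM with ETV1 (1.04 ± 0.10, adjusted p = 0.000253). NPC1 had 156 and 163 CPM with ERG and 104 and 89.5 CPM with ETV1 (0.69 ± 0.079, adjusted p = 0.000675). The differences of MSMO1, MVD, IDI1, FDFT1 and FDPS lay between 0.78 and 0.95. ABCA1 (-0.18 ± 0.50) and ABCG1 (-0.12 ± 0.12) were not called between ERG and ETV1.

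Without ETV1 replicate 2 the count between ERG and ETV1 was 13, against 20 with all libraries, and ACAT2, CYP51A1, HSD17B7, MVK, MYLIP, NSDHL and SQLE lost their calls (adjusted p 0.055 to 0.212). Calls over all genes numbered 1003 without that library, against 2441 with all libraries. ACAT2 (0.139), CYP51A1 (0.0587) and NSDHL (0.188) had adjusted p values above the threshold without ERG replicate 2 as well, NSDHL (0.0975) and SQLE (0.0572) without ETV1 replicate 1, and MYLIP without any 1 of the 4 libraries (0.0897 to 0.15).

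In VCaP cells, knockdown of ARID1A raised a subset of the synthesis genes and lowered others. Of the 18 enzyme genes 11 rose with shARID1A, 4 fell and 3 were not called, and the summed enzyme level was 4656 and 5055 CPM with shARID1A, against 2579.8 and 2496 CPM with shCt. Of the 30 genes 16 rose, 5 fell and 9 were not called, where 32.9% of the 16791 genes tested rose and 33.2% fell. The median log2 change was 0.31 against 0.009 over all genes. Calls in either direction were made for 70% of the members and 66.1% of all genes tested, and 5 members rose by at least 2-fold, where 18.2% of all genes changed by as much.

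SC5D had 1861 and 1972 CPM with shARID1A, against 560.3 and 559 CPM with shCt (1.71 ± 0.058, adjusted p = 1.11e-16), the largest change of the 30 genes in this comparison. HMGCS1 had 585 and 676 CPM with shARID1A, against 269.8 and 249.9 CPM with shCt (1.21 ± 0.058, adjusted p = 3.16e-14). MVD had 18.6 and 22.8 CPM with shARID1A, against 9.39 and 9.14 CPM with shCt (1.08 ± 0.11, adjusted p = 1.08e-08). In these 3 genes every shARID1A library lay above every shCt library. MSMO1 had 296 and 338 CPM with shARID1A, against 160.2 and 137 CPM with shCt (1.03 ± 0.068, adjusted p = 1.04e-11). LSS, CYP51A1, IDI1, FDPS, SQLE and FDFT1 rose by log2 changes between 0.31 (FDFT1) and 0.67 (LSS). HSD17B7 rose by 0.49 ± 0.16, a call lost without shARID1A replicate 2 (log2 change 0.25, adjusted p = 0.212) and without shCt replicate 1 (0.39, adjusted p = 0.0806).

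Enzyme genes of the same pathway also fell with shARID1A. ACAT2 had 44.5 and 49.5 CPM with shARID1A, against 67.5 and 68.3 CPM with shCt (-0.60 ± 0.059, adjusted p = 8.78e-09). TM7SF2 (-0.40 ± 0.044), EBP (-0.38 ± 0.085), the gene of a sterol isomerase, and PMVK (-0.16 ± 0.045) fell by less, and the PMVK call was lost on the scale of library totals (log2 change -0.096, adjusted p = 0.0615). MVK (0.093), NSDHL (0.015) and DHCR7 (0.087) were not called.

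INSIG1 had 258 and 306 CPM with shARID1A, against 111 and 97.8 CPM with shCt (1.36 ± 0.070, adjusted p = 1.06e-13), while SREBF2 (0.10 ± 0.045), INSIG2 (0.12) and MBTPS2 (0.066) were not called. MBTPS1 rose by 0.30 ± 0.047 and SCAP fell (-0.26 ± 0.046, adjusted p = 3.27e-05). NPC1 had 59.3 and 61.3 CPM with shARID1A, against 35.7 and 35.5 CPM with shCt (0.69 ± 0.060, adjusted p = 1e-09), and STARD4 rose by 0.67 ± 0.10. ABCG1 rose by 0.56 ± 0.068, and ABCA1 (-0.17 ± 0.13), SOAT1 (0.016) and MYLIP (0.18) were not called. Of the 21 calls with shARID1A, 19 were also made under every alternative tried.

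**Figure D3:**
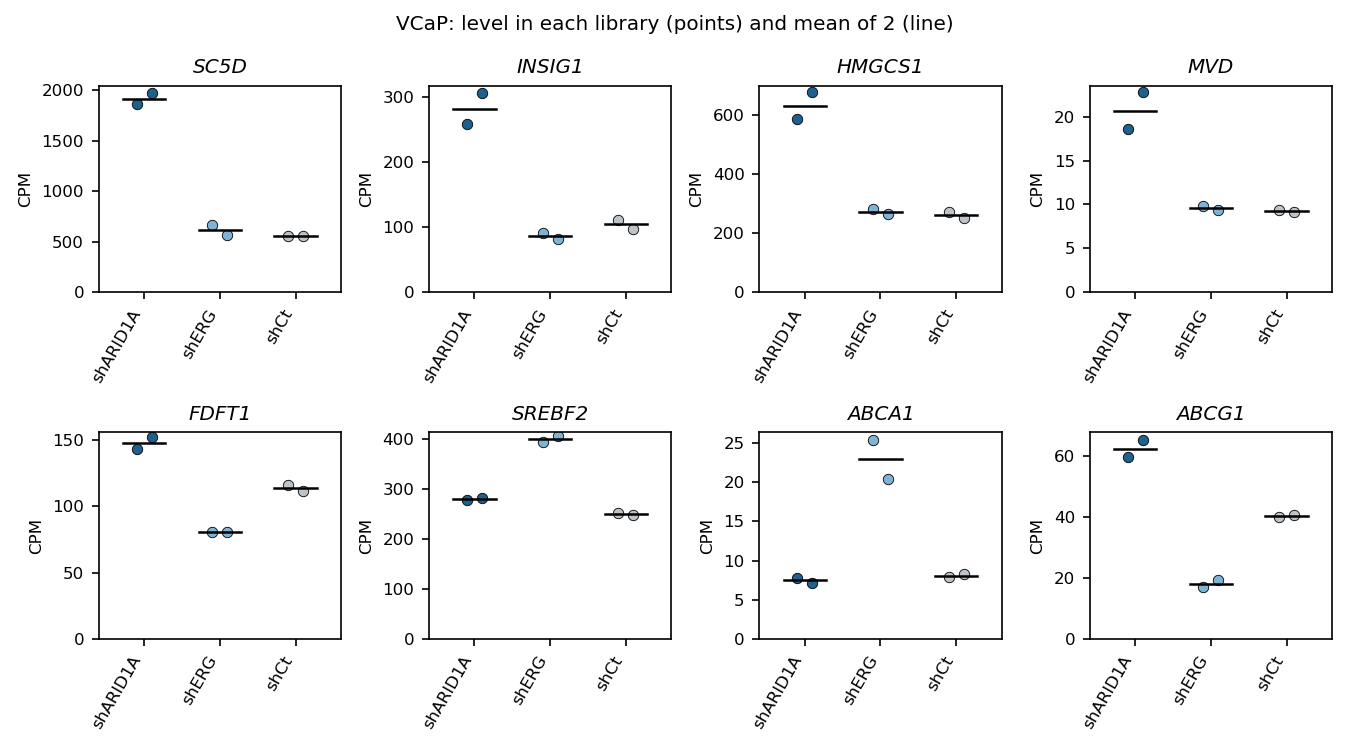
CPM of 8 genes in each VCaP library (points) and the mean of 2 (line) for the shARID1A, shERG and shCt groups, each panel starting at 0. SC5D, INSIG1, HMGCS1 and MVD are high with shARID1A alone, whereas SREBF2 and ABCA1 are high and FDFT1 and ABCG1 low with shERG.

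Knockdown of ERG in VCaP changed most synthesis genes little, and the efflux genes more. With shERG 4 of the 18 enzyme genes rose, 6 fell and 8 were not called, and of all 30 genes 10 rose and 10 fell. Over all genes tested 29.3% rose and 37.4% fell, so the share of members called (66.7%) equalled that of all genes (66.7%). ABCA1 and ABCG1 changed by at least 2-fold, as did 17.3% of all genes. The median log2 change of the members was -0.026 against -0.053 over all genes. This comparison moved with the scale, since on library totals the median of all genes lay 0.183 higher in log2 units and 60.5% of the calls over all genes were rises, against 43.9% on the TMM scale.

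HMGCS1, the gene with the largest rise with ERG in LNCaP, had 280.1 and 264 CPM with shERG, against 269.8 and 249.9 CPM with shCt, and was not called (-0.12 ± 0.058, adjusted p = 0.0838). FDFT1 had 80.6 and 80.4 CPM with shERG, against 116 and 112 CPM with shCt (-0.69 ± 0.051, adjusted p = 8.35e-11), the largest change among the enzyme genes. MVK fell to 16.6 and 17.8 CPM with shERG, against 21.3 and 19.2 CPM with shCt (-0.42 ± 0.089, adjusted p = 0.000271). LSS (0.20 ± 0.044) rose under every alternative tried. The falls of FDPS, SQLE and MSMO1 (log2 changes -0.15, -0.15 and -0.18) turned to 0.028, 0.031 and 0.004 on library totals, and their CPM overlapped between shERG and shCt. HSD17B7 (0.43) lost its call without shCt replicate 1 (adjusted p = 0.135) and without shERG replicate 1 (adjusted p = 0.0678). EBP (-0.22) lost it without shCt replicate 1 (adjusted p = 0.0779), shCt replicate 2 (adjusted p = 0.0604) or shERG replicate 1 (-0.088, adjusted p = 0.462). NSDHL (0.26) lost it without shCt replicate 2 (adjusted p = 0.435) or shERG replicate 2 (adjusted p = 0.0646), and TM7SF2 (0.14) without shCt replicate 2 (adjusted p = 0.0713).

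Of the 6 sensing genes 4 rose with shERG and 1, INSIG1, fell. SREBF2 had 393 and 404 CPM with shERG, against 252 and 247 CPM with shCt (0.49 ± 0.044, adjusted p = 2.09e-09). SCAP, MBTPS1 and MBTPS2 rose by 0.24 ± 0.045, 0.26 ± 0.047 and 0.27 ± 0.060. INSIG1 had 91.4 and 81.5 CPM with shERG, against 111 and 97.8 CPM with shCt (-0.45 ± 0.073, adjusted p = 1.1e-05), and INSIG2 (-0.075) was not called. The largest changes were those of the efflux genes, and they ran in opposite directions. ABCA1 had 25.5 and 20.4 CPM with shERG, against 7.91 and 8.26 CPM with shCt (1.33 ± 0.11, adjusted p = 8.26e-10). ABCG1 had 16.9 and 19.2 CPM with shERG, against 40.0 and 40.7 CPM with shCt (-1.35 ± 0.077, adjusted p = 1e-12). Both genes had groups that did not overlap, and both calls were made under every alternative tried.

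Transport genes gave small changes with shERG. MYLIP (-0.28) was called lower, and the call was lost without shCt replicate 1 (adjusted p = 0.145), shERG replicate 1 (adjusted p = 0.0952) or shERG replicate 2 (adjusted p = 0.146). NPC1 (0.16) was called higher, and the call was lost without shCt replicate 1 (adjusted p = 0.0516), shCt replicate 2 (adjusted p = 0.102) or shERG replicate 2 (adjusted p = 0.0787). SOAT1 (-0.23) was called lower, not so without shERG replicate 1 (adjusted p = 0.0503). STARD4 had a log2 change of 0.21 ± 0.10 and was not called. Markers moved with this knockdown too: 6 of 7 prostate luminal genes fell and their sum was 5402 and 5634 CPM with shERG, against 10369 and 10962 CPM with shCt, with none at 0. All 4 fibroblast genes rose, to a sum of 81.0 and 82.3 CPM with shERG, against 29.4 and 29.8 CPM with shCt. With shARID1A the luminal sum was 8480.2 and 9037 CPM and the fibroblast sum 14.3 and 17.1 CPM. Gene by gene the directions were mixed there, with 4 luminal genes called higher and 3 lower, and 2 fibroblast genes higher and 1 lower. The part of these shifts in the changes of the cholesterol genes was not tested.

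Between the knockdowns, 18 of the 30 genes were higher and 8 lower in shARID1A than in shERG, where 36.8% of all genes tested were higher and 36.2% lower (73% in all). At least 2-fold apart, 6 members were higher and 1 lower, and 24.6% of all genes differed by as much. ABCG1 (1.91 ± 0.074), INSIG1 (1.82 ± 0.071) and SC5D (1.76 ± 0.058) had the largest differences in favour of shARID1A, and ABCA1 (-1.50 ± 0.11) the largest in favour of shERG. HMGCS1 (1.33 ± 0.058), MVD (1.22 ± 0.11), MSMO1 (1.21 ± 0.068) and FDFT1 (0.99 ± 0.050) were higher in shARID1A. ACAT2 (-0.63 ± 0.058), TM7SF2 (-0.54 ± 0.044) and SCAP (-0.51 ± 0.046) were lower. INSIG2 (0.20) lost its call whichever of the 4 libraries was left out (adjusted p 0.0578 to 0.366), and NSDHL (-0.24) without shARID1A replicate 1 (0.149) or shERG replicate 2 (0.0698).

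With BRG1 instead of GFP, both beside the empty vector, 9 of 18 enzyme genes rose in SW13 cells, 4 fell and 5 were not called, with a median log2 change of 0.22 over the enzymes. Of the 30 genes 16 rose and 7 fell, where 32.2% of the 17018 genes tested rose and 30.2% fell (62.4% in all). By at least 2-fold 1 member rose, ABCA1, where 15.9% of all genes changed by as much, and the median log2 change was 0.24 against 0.032 over all genes. With library totals as the scale that median over all genes lay 0.133 higher in log2 units, and 64.1% of the calls over all genes were rises, against 51.6%. On library totals the summed enzyme level was 1348 and 1325 CPM in BRG1 Empty, against 1178 and 1198 CPM in GFP Empty, with no overlap. The gap in such sums depended on the scale. For all 30 genes the mean sum was 2055.3 in BRG1 Empty against 1778.4 in GFP Empty on library totals. With TMM over all 24 libraries it was 1900.4 against 1819.8, and the enzyme sum was not computed on that scale.

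ABCA1 had 10.8 and 12.2 CPM in BRG1 Empty, against 0.267 and 0.313 CPM in GFP Empty (5.14 ± 0.28, adjusted p = 1.3e-16, 35.3-fold). It was the largest change of any member in any comparison and the libraries of the groups did not overlap. ABCG1 rose by less (0.55 ± 0.12), and SOAT1 fell to 57.7 and 55.5 CPM in BRG1 Empty, against 68.6 and 78.1 CPM in GFP Empty (-0.51 ± 0.081, adjusted p = 2.29e-06). MYLIP, like the ABC transporter genes a known LXR target, had 12 and 13.5 CPM in BRG1 Empty, against 6.77 and 7.76 CPM in GFP Empty (0.67 ± 0.14, adjusted p = 8.84e-05). NPC1 rose by 0.51 ± 0.077. STARD4 (0.21) was called higher, not so without BRG1 Empty replicate 2 (0.15, adjusted p = 0.27) or GFP Empty replicate 1 (0.087, adjusted p = 0.504).

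The sensing genes moved in different directions with BRG1. SREBF2 had 149.7 and 148 CPM in BRG1 Empty, against 76.5 and 77.1 CPM in GFP Empty (0.82 ± 0.075, adjusted p = 4.09e-11). INSIG2 had 22.2 and 21.7 CPM in BRG1 Empty, against 42.4 and 33.8 CPM in GFP Empty (-0.93 ± 0.10, adjusted p = 1.49e-09). MBTPS2 fell (-0.59 ± 0.10), SCAP (-0.12) and MBTPS1 (0.010) were not called, and INSIG1 (0.29) was called higher, not so without GFP Empty replicate 1 (0.20, adjusted p = 0.0845). Of the enzyme genes, MVK had 9.70 and 8.76 CPM in BRG1 Empty, against 4.90 and 4.15 CPM in GFP Empty (0.90 ± 0.15, adjusted p = 3.9e-06). MVD rose by 0.82 ± 0.10, LSS by 0.71 ± 0.081, HMGCS1 by 0.47 ± 0.078, MSMO1 by 0.40 ± 0.11 and SC5D by 0.39 ± 0.082. PMVK had 60.1 and 58.3 CPM in BRG1 Empty, against 85.8 and 81.2 CPM in GFP Empty (-0.63 ± 0.075, adjusted p = 1.11e-08), and ACAT2 (-0.57 ± 0.077) and TM7SF2 (-0.44 ± 0.086) fell too.

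Some calls with BRG1 were lost when a library was left out. HSD17B7 (0.35) lost its call whichever of the 4 it was (log2 changes 0.329 to 0.365, adjusted p 0.0801 to 0.126), DHCR7 (0.27) without BRG1 Empty replicate 1 (adjusted p = 0.0607) or GFP Empty replicate 1 (adjusted p = 0.0703), and SQLE (0.28) without BRG1 Empty replicate 1 (adjusted p = 0.095). CYP51A1 (-0.24) lost it without BRG1 Empty replicate 2 (adjusted p = 0.0836) or GFP Empty replicate 2 (adjusted p = 0.106). The 4 fibroblast markers summed to 61.4 and 62.9 CPM in BRG1 Empty, against 9.21 and 9.67 CPM in GFP Empty, with 2 called higher and 1 lower. The luminal markers summed to 66.7 and 66.9 CPM in BRG1 Empty, against 16.7 and 17.1 CPM in GFP Empty, with 2 of the 5 tested called higher and 1 lower. Of the 5 blood and endothelial markers 3 were called higher and 1 lower. The part of these markers in the changes was not tested.

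Cholesterol genes moved in both directions between the ATPase mutant and GFP. With BRG1-K785R instead of GFP, 8 enzyme genes rose, 5 fell and 5 were not called, and of the 30 genes 12 rose and 9 fell, where 32.3% of all genes tested rose and 26.4% fell. INSIG2, NPC1 and MVK changed by at least 2-fold, as did 13.4% of all genes. The median log2 change was 0.034 against 0.046 over all genes, so the share called (70%) set against 58.7% of all genes came with no common direction. These libraries share the GFP Empty controls with the comparison above and carried the high RNA45S5 level, whose part in their values was not tested.

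INSIG2 had 7.44 and 8.33 CPM in BRG1-K785R Empty, against 42.4 and 33.8 CPM in GFP Empty (-2.19 ± 0.11, adjusted p = 1.11e-16), the lowest level of this gene in the series. NPC1 had 195 and 185 CPM in BRG1-K785R Empty, against 75.2 and 76.1 CPM in GFP Empty (1.41 ± 0.077, adjusted p = 3.76e-16). STARD4 had 18.5 and 21.4 CPM in BRG1-K785R Empty, against 37.5 and 43.3 CPM in GFP Empty (-0.95 ± 0.10, adjusted p = 5.63e-10). In all 3 genes the groups did not overlap, with NPC1 high and the other 2 low in the mutant. MVK rose to 9.70 and 10.6 CPM in BRG1-K785R Empty, against 4.90 and 4.15 CPM in GFP Empty (1.25 ± 0.15, adjusted p = 1.03e-08), with MVD (0.95 ± 0.10), SREBF2 (0.91 ± 0.075), HMGCS1 (0.82 ± 0.079), NSDHL (0.78 ± 0.087), DHCR7 (0.73 ± 0.080) and HSD17B7 (0.59 ± 0.14). PMVK (-0.88 ± 0.076), TM7SF2 (-0.79 ± 0.088) and ACAT2 (-0.70 ± 0.078) fell. ABCA1 had 0.489 and 0.498 CPM in BRG1-K785R Empty, against 0.267 and 0.313 CPM in GFP Empty, and was not called (0.82 ± 0.50, adjusted p = 0.156).

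Calls with BRG1-K785R that were lost when a library was left out were those of FDFT1 (0.26, adjusted p = 0.129 without GFP Empty replicate 1), LSS (-0.28, adjusted p = 0.143 without that library and 0.0784 without BRG1-K785R Empty replicate 2), FDPS and MBTPS2. FDPS (-0.26) was not called without BRG1-K785R Empty replicate 1 (-0.21, adjusted p = 0.0687) or GFP Empty replicate 2 (-0.22, adjusted p = 0.0632), and MBTPS2 (-0.36) not without BRG1-K785R Empty replicate 1 (-0.20, adjusted p = 0.124).

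Set against the mutant directly, BRG1 gave 11 higher and 8 lower genes of the 30, where 32.6% of all genes tested were higher and 34.1% lower (66.7% in all). ABCA1, INSIG2 and STARD4 were higher by at least 2-fold, and 19.8% of all genes differed by as much. ABCA1 differed most, with 10.8 and 12.2 CPM in BRG1 Empty and 0.489 and 0.498 CPM in BRG1-K785R Empty (4.32 ± 0.26, adjusted p = 1.05e-15). INSIG2 (1.26 ± 0.12), STARD4 (1.16 ± 0.10), LSS (0.99 ± 0.082) and ABCG1 (0.75 ± 0.12) were higher with BRG1 than with the mutant. NPC1 (-0.90 ± 0.075), NSDHL (-0.80 ± 0.086), SCAP (-0.52 ± 0.073) and DHCR7 (-0.46 ± 0.079) were lower with BRG1. MSMO1 (0.38) lost its call without BRG1-K785R Empty replicate 1 (adjusted p = 0.169), MYLIP (0.45) without BRG1 Empty replicate 2 (0.0578), PMVK (0.25) without BRG1 Empty replicate 1 (0.062) and FDFT1 (-0.23) without BRG1 Empty replicate 2 (0.0626). MVK (-0.35) lost it without BRG1 Empty replicate 2 (0.157) or BRG1-K785R Empty replicate 2 (0.119), and MBTPS2 (-0.23) without those 2 libraries (0.202 and 0.647) or BRG1 Empty replicate 1 (0.0551). On library totals FDFT1 (-0.011), HMGCS1 (-0.15), MVK (-0.14) and MBTPS2 (-0.014) were not called. On that scale the median of all genes lay 0.212 higher in log2 units, and 66% of the calls over all genes were rises, against 48.9%. The BRG1-K785R Empty pair carried the high RNA45S5 level in this comparison too, and the part of that level was not tested.

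**Figure D4:**
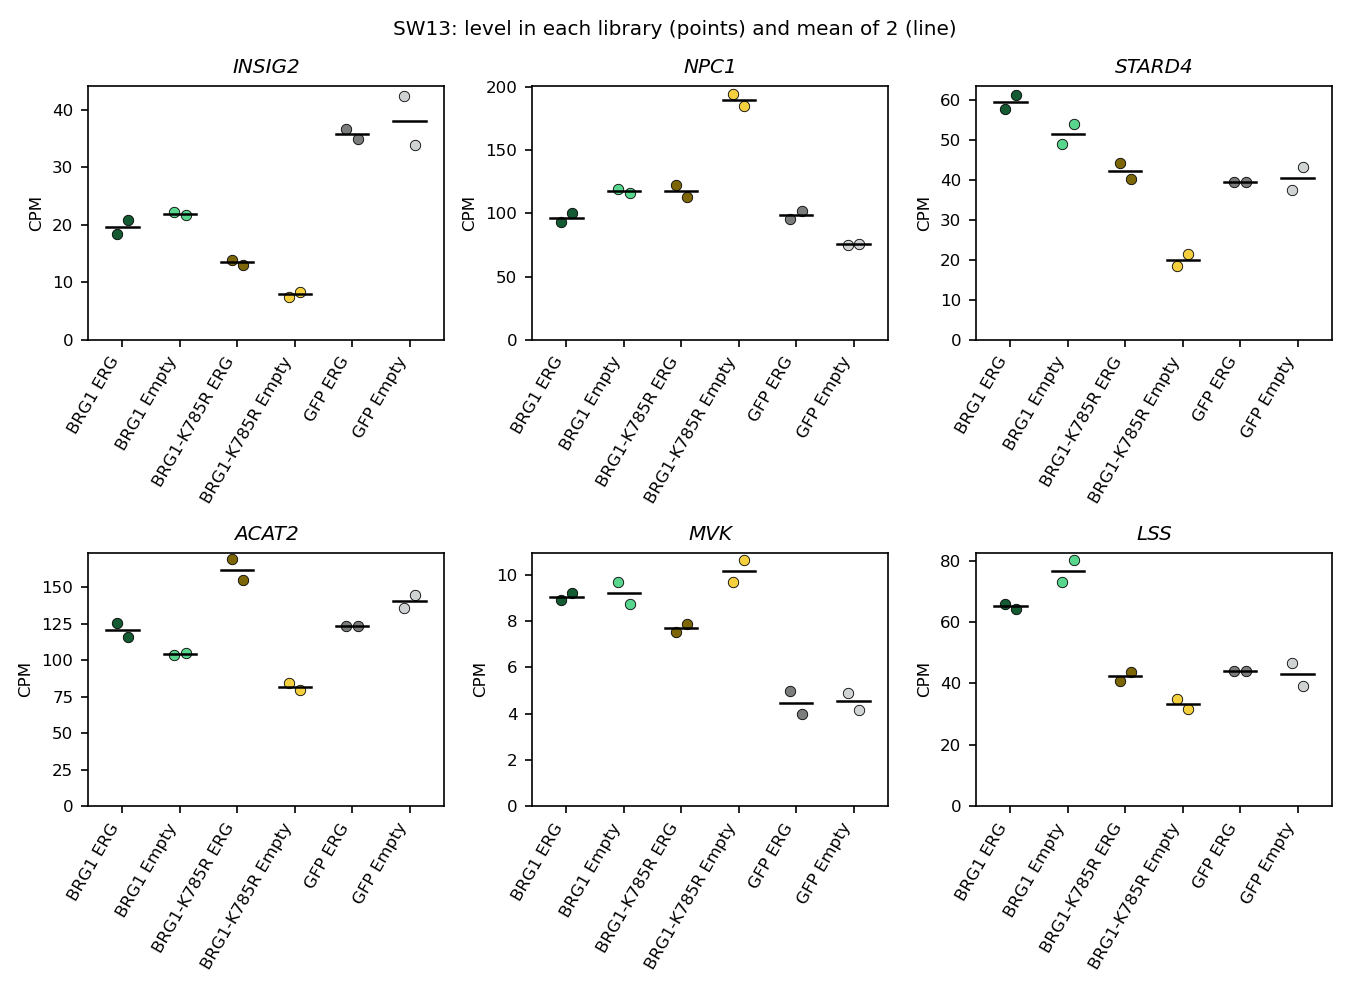
CPM of 6 genes in each SW13 library (points) and the mean of 2 (line) for the 6 groups, each panel starting at 0. BRG1-K785R Empty has the lowest INSIG2, STARD4, ACAT2 and LSS and the highest NPC1, and BRG1-K785R ERG lies nearer to the other groups for INSIG2, STARD4 and NPC1.

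With ERG in SW13, 0 of the 18 enzyme genes rose and 3 fell beside GFP, 6 rose and 1 fell beside BRG1, and 6 rose and 5 fell beside the mutant. The summed enzyme level was 1116 and 1137 CPM in GFP ERG against 1178 and 1198 CPM in GFP Empty, 1445 and 1319 CPM in BRG1 ERG against 1348 and 1325 CPM in BRG1 Empty, and 1439 and 1360.1 CPM in BRG1-K785R ERG against 1160.3 and 1204 CPM in BRG1-K785R Empty. On library totals these sums overlapped beside BRG1, and lay lower with ERG beside GFP and higher with ERG beside the mutant. With TMM over all 24 libraries the mean sum of all 30 genes beside the mutant lay lower with ERG (1898.8 against 1996.5). The enzyme sums were not computed on that scale. Beside GFP, of the 30 genes 4 rose and 3 fell, where 12.6% of all genes tested rose and 13.5% fell (26% in all). By at least 2-fold 0 members changed beside any of the 3 constructs, where 1.59% of all genes did beside GFP, 7.72% beside BRG1 and 11.2% beside the mutant. HMGCS1 had 77.3 and 78.8 CPM in GFP ERG, against 68.1 and 72.6 CPM in GFP Empty (0.10 ± 0.079, adjusted p = 0.406), and INSIG1 had 33.5 and 32.1 CPM in GFP ERG, against 31.7 and 34.6 CPM in GFP Empty (-0.068 ± 0.085, adjusted p = 0.601). ABCG1 had 18.0 and 17.3 CPM in GFP ERG, against 11.6 and 11.8 CPM in GFP Empty (0.54 ± 0.12, adjusted p = 0.0011), the 1 call of the 7 that every alternative made. The count of 7 was 4 without GFP Empty replicate 2, 3 without GFP ERG replicate 1 and 3 without GFP ERG replicate 2. Calls over all genes numbered 1743, 2199 and 2474 without the same 3 libraries, in that order, against 4433 with all libraries. NPC1 (0.33) lost its call without GFP ERG replicate 2 (adjusted p = 0.0621), SREBF2 (0.28) without that library (0.142) or GFP Empty replicate 1 (0.0603), and SCAP (0.24) whichever of the 4 was left out (0.0576 to 0.126). SQLE (-0.30), CYP51A1 (-0.26) and ACAT2 (-0.24) lost theirs without GFP ERG replicate 1 (adjusted p 0.0913, 0.14 and 0.131) or GFP Empty replicate 2 (0.0821, 0.2 and 0.268), and ACAT2 without GFP ERG replicate 2 also (0.0939). On library totals 62% of the calls over all genes were rises, against 48.3%.

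Beside BRG1, ERG raised 8 and lowered 5 of the 30 genes, where 22.6% of all genes tested rose and 22.8% fell (45.4% in all). ABCG1 had 13.8 and 11.9 CPM in BRG1 ERG, against 18.1 and 19.5 CPM in BRG1 Empty (-0.50 ± 0.12, adjusted p = 6e-04). SREBF2 had 111 and 111 CPM in BRG1 ERG, against 149.7 and 148 CPM in BRG1 Empty (-0.38 ± 0.074, adjusted p = 8.78e-05). These were the 2 calls that every alternative made. ABCA1 had 6.71 and 9.65 CPM in BRG1 ERG, against 10.8 and 12.2 CPM in BRG1 Empty (-0.44 ± 0.16, adjusted p = 0.0245), a call lost without BRG1 ERG replicate 1 (-0.20, adjusted p = 0.413) and without BRG1 Empty replicate 2 (-0.36, adjusted p = 0.194). The count of 13 was 5 without BRG1 ERG replicate 1 and 6 without BRG1 Empty replicate 2. The other calls were smaller, with IDI1 (0.29), SC5D, ACAT2, STARD4, MSMO1, MBTPS1, SQLE and HMGCS1 (0.18) higher and NPC1 (-0.24) and LSS (-0.19) lower. Apart from STARD4 they lost the call without BRG1 ERG replicate 1 (adjusted p 0.0547 for SC5D to 0.198 for MSMO1), and STARD4 lost it without BRG1 ERG replicate 2 (0.0943) or BRG1 Empty replicate 1 (0.168). Without BRG1 Empty replicate 2, HMGCS1, LSS, MBTPS1, MSMO1, SC5D and SQLE were not called either (0.0643 to 0.331). Marker sums moved with this comparison: the fibroblast genes had 12.2 and 14.0 CPM in BRG1 ERG, against 61.4 and 62.9 CPM in BRG1 Empty, and the luminal genes 147 and 196 CPM in BRG1 ERG, against 66.7 and 66.9 CPM in BRG1 Empty, with 4 of the 5 tested called higher. Their part in the changes was not tested.

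Beside the mutant, 9 of the 30 genes rose and 10 fell with ERG, where 25.3% of all genes tested rose and 30.9% fell (56.2% in all). STARD4 had 44.1 and 40.3 CPM in BRG1-K785R ERG, against 18.5 and 21.4 CPM in BRG1-K785R Empty (0.90 ± 0.10, adjusted p = 2.63e-09). NPC1 had 122 and 113 CPM in BRG1-K785R ERG, against 195 and 185 CPM in BRG1-K785R Empty (-0.88 ± 0.076, adjusted p = 1.75e-11). ACAT2 had 169 and 155 CPM in BRG1-K785R ERG, against 84.3 and 79.4 CPM in BRG1-K785R Empty (0.80 ± 0.078, adjusted p = 2.62e-10). INSIG2 (0.58 ± 0.13), IDI1 (0.54 ± 0.086) and PMVK (0.51 ± 0.078) rose, and MVK (-0.58 ± 0.14), MBTPS2 (-0.57 ± 0.10), NSDHL (-0.52 ± 0.086), SREBF2 (-0.49 ± 0.074) and TM7SF2 (-0.45 ± 0.094) fell. SC5D (0.34), MSMO1 (0.34), FDPS (0.26), FDFT1 (-0.21) and MYLIP (-0.42) lost their calls without BRG1-K785R Empty replicate 1 (adjusted p 0.0544, 0.326, 0.0803, 0.0612 and 0.0782). MSMO1 (0.0811), FDPS (0.0536) and MYLIP (0.0951) also did without BRG1-K785R ERG replicate 1, and FDFT1 without BRG1-K785R ERG replicate 2 (0.188) or BRG1-K785R Empty replicate 2 (0.0635). The BRG1-K785R Empty libraries are the pair with high RNA45S5, and the part of that level was not tested. On library totals the median of all genes lay 0.183 higher in log2 units, and 64.6% of the calls over all genes were rises, against 45.1%.

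The effect of ERG differed between the constructs by a direct test for some members. Between BRG1 and GFP the ERG effect differed in 13 of 30 genes, where 37.8% of all genes tested differed, and 7 of them did so without GFP Empty replicate 2. ABCG1 had the largest such difference, with an ERG effect of -0.50 beside BRG1 and 0.54 beside GFP (difference -1.04 ± 0.17, adjusted p = 9.51e-06). Between the mutant and GFP it differed in 18 genes, where 39.8% of all genes differed, with ACAT2 (1.04 ± 0.11), STARD4 (0.99 ± 0.13) and NPC1 (-1.21 ± 0.11) among the largest. Between BRG1 and the mutant it differed in 17 genes, where 46.2% of all genes differed, and in 9 without BRG1 Empty replicate 2 and 10 without BRG1-K785R ERG replicate 2. STARD4 (-0.65 ± 0.13), INSIG2 (-0.70 ± 0.16), NSDHL (0.67 ± 0.12) and NPC1 (0.64 ± 0.11) differed there. Both sets of differences with the mutant take in the BRG1-K785R Empty pair, which carried the high RNA45S5 level. Among the SW13 groups that pair had the lowest INSIG2, STARD4 and ACAT2 and the highest NPC1. The part of the RNA45S5 level in these differences was not tested.

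The efflux genes ABCA1 and ABCG1 differed in opposite directions in some comparisons and in the same direction in others. ABCA1 was highest in VCaP shERG (2.18 ± 0.341 RPKM, SD, n = 2) and in SW13 BRG1 Empty (1.10 ± 0.0957 RPKM), and lowest in SW13 GFP ERG (0.0216 ± 0.00872 RPKM). ABCG1 was highest in VCaP shARID1A (17.4 ± 1.12 RPKM) and lowest in LNCaP Empty (1.75 ± 0.127 RPKM). ABCA1 fell and ABCG1 rose with ERG in LNCaP, and ABCA1 rose and ABCG1 fell with shERG in VCaP, in comparisons that share no library. ETV1 in LNCaP, set against the same Empty libraries as ERG, also came with lower ABCA1 (-2.16) and higher ABCG1 (0.88). That ABCA1 call was lost without Empty replicate 1 or ETV1 replicate 1. With ERG beside GFP in SW13, ABCG1 rose (0.54) and ABCA1 was not called. In SW13 both rose with BRG1 (5.14 and 0.55), both were higher with BRG1 than with the mutant (4.32 and 0.75), and both fell with ERG beside BRG1 (-0.44 and -0.50), where the ABCA1 call was lost without BRG1 ERG replicate 1 or BRG1 Empty replicate 2.

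**Figure D5:**
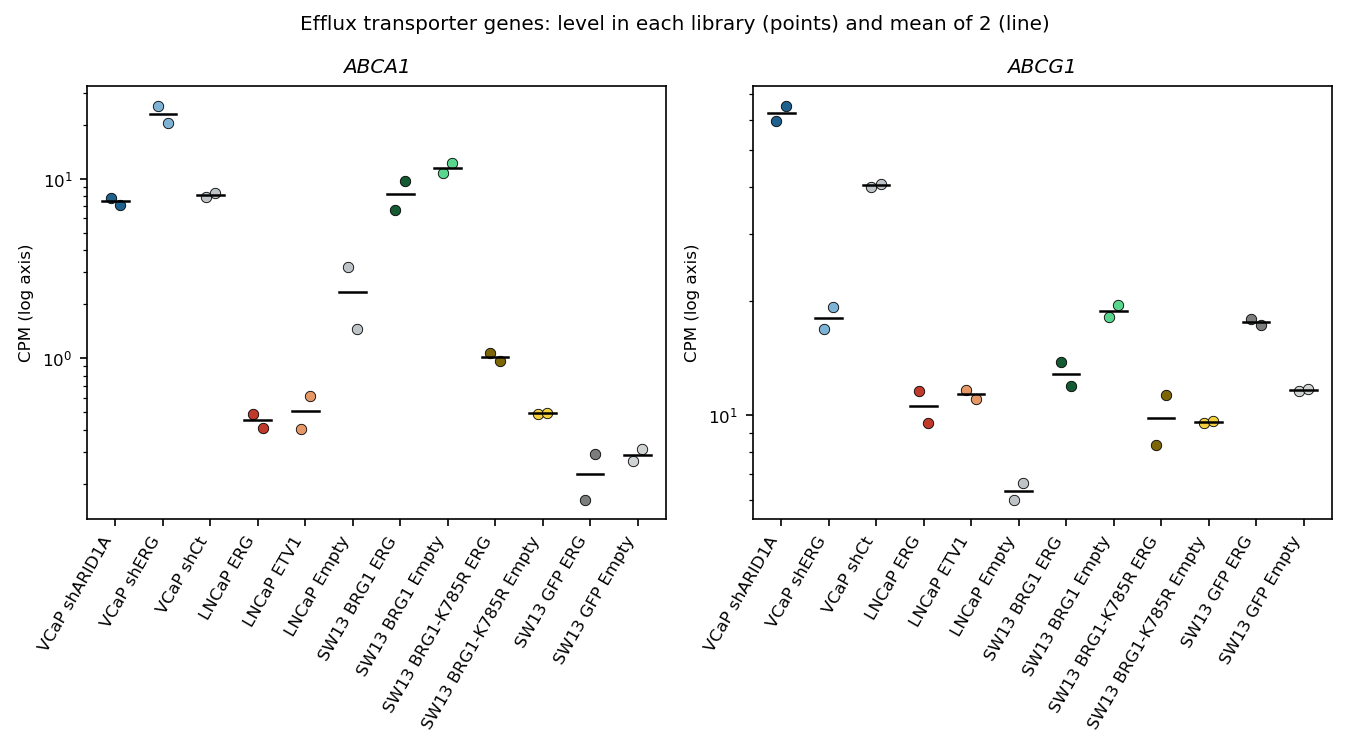
CPM on a log axis of ABCA1 and ABCG1 in each of the 24 libraries (points) with the mean of 2 (line), for the 12 groups. The group means of ABCA1 span 100.8-fold, with SW13 BRG1 groups far above the other SW13 groups, and those of ABCG1 span 9.90-fold.

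Neighbouring pathways were described from lists of 12 fatty acid genes, 10 genes of other isoprenoid branches and 16 further sterol handling genes, of which 14 were tested. In LNCaP with ERG all 12 fatty acid genes rose, where 15.4% of all genes tested did (median log2 change 0.70), such as ACSS2, an acetyl-CoA synthetase gene (1.67 ± 0.10), LPIN1 (1.56 ± 0.10), SCD, the stearoyl-CoA desaturase gene (1.43 ± 0.066), and FASN, the fatty acid synthase gene (1.12 ± 0.072). With ETV1 7 rose and 2 fell, where 13.2% and 12.9% of all genes did, with ACSS2 at 1.21 ± 0.10 and ACSL3, which activates fatty acids, at -0.64 ± 0.047. In VCaP with shERG 9 of 12 fell and 3 rose, where 37.4% and 29.3% of all genes did (median -0.43), with FASN at -0.59 ± 0.049, MID1IP1 at -1.25 ± 0.049 and ELOVL6, an elongase gene, at -0.97 ± 0.084. With shARID1A 4 rose and 5 fell, where 32.9% and 33.2% of all genes did, with SCD at 0.88 ± 0.047 and ACSS2 at 0.87 ± 0.056. In SW13 ERG lowered 7 of 11 tested beside BRG1 and 7 of 11 beside the mutant, where 22.8% and 30.9% of all genes fell, with FASN at -0.88 ± 0.077 beside BRG1 and -0.73 ± 0.077 beside the mutant, and beside GFP 3 of 11 rose and 0 fell, where 12.6% of all genes rose, with FASN at 0.25 ± 0.077.

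The isoprenoid branch genes, which turn the intermediates of the pathway into dolichol, ubiquinone or protein lipid anchors were counted in the same way. In LNCaP with ERG 2 of 10 rose and 4 fell, where 15.4% and 14.3% of all genes did, with FNTA, a farnesyltransferase subunit gene, at 0.48 ± 0.046 and PDSS1, a ubiquinone tail gene, at -0.54 ± 0.11. With shARID1A 2 rose and 5 fell, with NUS1, a dolichol synthesis gene, at -1.08 ± 0.052, and with shERG 1 rose and 5 fell. The share called was 70% with shARID1A, against 66.1% of all genes, and 60% with shERG, against 66.7%. With BRG1 in SW13 1 rose and 5 fell, a share of 60% against 62.4% of all genes. Set against the mutant, 1 was higher and 7 were lower with BRG1, where 32.6% of all genes were higher and 34.1% lower. Of the 14 sterol handling genes tested, 9 rose and 5 fell with shERG, where 29.3% and 37.4% of all genes did. With shARID1A 10 rose and 3 fell, where 32.9% and 33.2% did. In LNCaP with ERG 4 rose and 1 fell, where 15.4% and 14.3% did. With BRG1 in SW13 7 rose and 2 fell, where 32.2% and 30.2% did. APOE, an apolipoprotein gene, rose with shERG in VCaP (3.15 ± 0.13). NPC2, whose product works beside NPC1, rose with shARID1A (1.36 ± 0.051) and with BRG1 in SW13 (1.5 ± 0.075). Its mean in VCaP was also higher with shERG (88.1 CPM) than with shCt (53.9 CPM). SCARB1, a lipoprotein receptor gene, fell with shARID1A (-1.36 ± 0.061) and with shERG (-0.74 ± 0.058). GRAMD1B, which encodes a sterol carrier at membrane contacts, had 5.16 and 5.45 CPM with ERG and 24.3 and 24.3 CPM with ETV1, against 0.277 and 0.262 CPM with Empty, in LNCaP.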

How the data were processed

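Gene counts and RPKM values, 1 table per library, were deposited by the authors. Reads were 75 bases long, and the submitters' processing notes name STAR 2.3.1 and build hg19; the counting program, annotation and strand setting were not given in the sources used here, so a gene and its antisense partner cannot be told apart. The deposited RPKM values equal the deposited counts per gene length and library total. CPM are counts scaled to library totals and were computed here, as were log2 changes, which use TMM scaling. The SW13 control is called GFP after the sample titles, although some protocol texts name luciferase.

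Each line was fitted by itself with edgeR 4.0.16 (limma 3.58.1, R 4.3.3), using a quasi-likelihood test with Benjamini-Hochberg adjustment over all genes passing edgeR's filter on low counts, 16791 in VCaP, 16993 in LNCaP and 17018 in SW13, and a threshold of 0.05. Tables and figures used Python 3.11.15, pandas 2.3.3 and matplotlib 3.10.9. The fit was tested on simulated data. Alternatives were RLE scaling, library totals, no filter, DESeq2 1.42.0, only the compared groups, a replicate block, each library left out, and TMM over all 24 libraries for levels. Libraries with the same replicate number did not deviate together throughout (correlations -0.18 to 0.26), so no pairing was used. Members and lists were chosen with earlier results of these data known. Per-library values were given for up to 8 called members per comparison, those with the largest log2 changes and no overlap between groups plus called members moving against most of their role, and for further members where a result turned on them. Companion lists were described by up to 4 called genes with the smallest adjusted p. A further prostate luminal marker is not reported here and was left out of that list's sums and counts.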

Additional observations from a re-analysis of the deposited data

Results flagged for a closer look

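In SW13, the effect of ERG differed by a direct test between the constructs beside it in 13 of the 30 genes for BRG1 against GFP, in 17 for BRG1 against BRG1-K785R and in 18 for BRG1-K785R against GFP. These were 43.3%, 56.7% and 60% of the members, against 37.8%, 46.2% and 39.8% of all genes tested. The count of 13 was 7 without GFP Empty replicate 2, and the count of 17 was 9 without BRG1 Empty replicate 2 and 10 without BRG1-K785R ERG replicate 2. ABCG1 had an ERG effect of -0.50 beside BRG1 and 0.54 beside GFP, a difference of -1.04 ± 0.17, adjusted p = 9.51e-06 by edgeR's quasi-likelihood test. ABCA1 had an ERG effect of -0.44 beside BRG1 and 0.84 beside BRG1-K785R, a difference of -1.29 ± 0.42 (adjusted p = 0.0135 by the same test). The effect of 0.84 was not called by itself and rests on 40 reads in BRG1-K785R ERG and 24 in BRG1-K785R Empty. The ABCA1 difference was not called without BRG1-K785R ERG replicate 1 or BRG1-K785R Empty replicate 1. ACAT2 had an ERG effect of 0.80 beside BRG1-K785R and -0.24 beside GFP, a difference of 1.04 ± 0.11, adjusted p = 4.86e-09. NPC1 had an ERG effect of -0.88 beside BRG1-K785R and 0.33 beside GFP, a difference of -1.21 ± 0.11, adjusted p = 1.79e-10. The differences of ABCA1, ACAT2 and NPC1 take in the BRG1-K785R Empty pair, which carried the high RNA45S5 level. Among the SW13 groups that pair also had the lowest ACAT2 and the highest NPC1. The part of the RNA45S5 level in these differences was not tested. Groups of 2 libraries allow no test for a library that stands apart.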

How the results depend on the processing

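Over the 12 comparisons and 3 differences of effects, 281 calls of members were made. RLE scaling made 271 of them again, no filter 271, DESeq2 255, only the compared groups 267 and library totals 242. On library totals the falls of FDPS, MSMO1 and SQLE with shERG in VCaP turned to 0.028, 0.004 and 0.031, and the ERG effect differed between BRG1 and GFP in 7 members, against 13. With 1 library left out, 1090 of 1316 calls were made again. The number of members called then ranged from 20 to 24 for LNCaP ERG, 11 to 17 for ETV1, 13 to 20 for ERG against ETV1, 20 to 22 for shARID1A, 14 to 16 for shERG, 24 to 26 for shARID1A against shERG, 19 to 22 for BRG1, 19 to 20 for BRG1-K785R and 15 to 19 for BRG1 against BRG1-K785R. For ERG in SW13 it ranged from 3 to 7 beside GFP, 14 to 19 beside BRG1-K785R and 5 to 10 beside BRG1, and for its differences from 7 to 13 (BRG1 against GFP), 9 to 18 (BRG1 against BRG1-K785R) and 14 to 17 (BRG1-K785R against GFP).

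The replicate block, fitted although the numbers only name the libraries, kept 274 of the 281 calls, with 23 members called for LNCaP ERG, 18 for ETV1, 17 for ERG against ETV1 and 12 for ERG beside BRG1. Scaled by TMM over all 24 libraries, the summed level of the 30 genes was 6401.6 CPM in VCaP shARID1A, 3708.5 in shCt, 2891.9 in LNCaP ETV1 and 2406.5 in LNCaP Empty. In SW13 it was then 1954.6 in BRG1 ERG, 1900.4 in BRG1 Empty, 1898.8 in BRG1-K785R ERG, 1996.5 in BRG1-K785R Empty and 1819.8 in GFP Empty. Relative to BRG1-K785R Empty this turned the order of BRG1-K785R ERG, BRG1 ERG and BRG1 Empty. Over all genes, leaving out 1 library gave as few as 2632 calls for LNCaP ERG (5045 with all), 1987 for ETV1 (4439), 1003 for ERG against ETV1 (2441) and 1743 for SW13 GFP ERG (4433). Pairs of libraries give few degrees of freedom, and ABCA1 in LNCaP and SW13 rests on few reads.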
